A study of Mus musculus with 15 samples.

Results

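The skeletal myosin heavy chains are the 6 genes Myh4, Myh1, Myh2, Myh8, Myh3 and Myh7, taken by symbol from a deposited table of 47643 gene symbols. All 6 were found, and all 6 were among the 11923 genes with at least 1 TPM (a transcript level scaled for transcript length and for the library total) in at least 3 libraries. The study sequenced messenger RNA of the tibialis anterior, a fast muscle of the lower leg, from female C57BL/6J mice labelled as 7 weeks old. Per the study's design text, the muscles were taken 49 days after the mice received a melanoma xenograft that induces cachexia, or a mock injection, and mice of either kind were given lisinopril, a drug that blocks angiotensin-converting enzyme, or mock treatment. The extraction protocol shared by all labels instead speaks of LLC cells and of 3 weeks after injection. The treatment labels name melanoma, which is followed here, but the tumour model and the time of collection are stated in conflict and could not be settled from the files. The 15 libraries form 4 groups: melanoma plus lisinopril (4 libraries), melanoma alone (4), lisinopril without a tumour (3) and mock-injected control (4). The sources used here give neither the melanoma line nor the dose of lisinopril, and the stated strain is shared by all groups. The labels call the libraries biological replicates.

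Myosin heavy chain is the motor protein of the thick filament, and the isoform a fibre makes sets how fast it contracts. Adult mouse limb muscle uses the fast isoforms IIB (Myh4), IIX (Myh1) and IIA (Myh2) and the slow isoform I (Myh7), while the embryonic (Myh3) and perinatal (Myh8) isoforms belong to developing and regenerating fibres. Limb fibres are classified by these proteins, and mixed fibres that make more than a single isoform occur. Cachexia is the loss of muscle mass and weight that accompanies many tumours.

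Of the 6 genes, 5 lay side by side on the plus strand of chromosome 11 and the slow isoform lay elsewhere (coordinates in mm10, from the GENCODE M21 annotation). Myh3 occupied chr11:67078300-67102291, Myh2 chr11:67171027-67197517, Myh1 chr11:67200052-67224575, Myh4 chr11:67238029-67260446 and Myh8 chr11:67277124-67308634, a cluster of 230335 bases, followed by Myh13, an isoform of eye and laryngeal muscles, at chr11:67321658-67371586. Myh7 occupied chr14:54970684-54994626 on the minus strand, beside the cardiac isoform Myh6 at chr14:54941921-54966927. The coding sequences, each spread over the exons of transcripts with 39 to 41 exons, were 5808 to 5829 bases long with the stop codon.

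The upstream sequences of 4 clustered genes shared a run of 14 bases, TTCTAATTATATCC, shown here because these 4 genes differed widely in level and the run was the longest that all 4 windows held. Each line gives 80 bases around it on the plus strand, 5′ to 3′, in build GRCm38.p6 from RefSeq, with the shared run in capitals.
Myh4, chr11:67237619-67237698: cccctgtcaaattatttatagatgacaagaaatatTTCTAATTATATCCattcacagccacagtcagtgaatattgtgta
Myh1, chr11:67199907-67199986: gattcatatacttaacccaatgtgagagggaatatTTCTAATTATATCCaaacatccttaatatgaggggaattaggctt
Myh2, chr11:67170867-67170946: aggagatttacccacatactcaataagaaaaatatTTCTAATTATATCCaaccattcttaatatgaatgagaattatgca
Myh8, chr11:67277035-67277114: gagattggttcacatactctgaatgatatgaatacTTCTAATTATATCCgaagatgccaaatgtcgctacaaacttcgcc
The run began at position -158 of Myh4, -160 of Myh1, -125 of Myh2 and -54 of Myh8, counted from the RefSeq transcription start. Searched on both strands, it occurred in 4 of 32817 upstream windows of the mouse table (0.0122%), those of the same 4 genes, and in neither the Myh3 nor the Myh7 window. The run was taken from these 4 windows, so their matches were fixed in advance. How often a run of this length recurs by chance was not tested. The TATA box, TATAAA, occurred on the sense strand at -31 and -213 in Myh4, -32 in Myh1 and -29 in Myh3, and on either strand in 12.4% of all windows. E-boxes (CANNTG), the sites of myogenic regulators, numbered 2 in Myh4, 1 in Myh8, 1 in Myh3 and 0 in Myh1 and Myh2, and 2 and 1 in the windows of the 2 starts listed for Myh7, against 66.2% of all windows with a match. The letters GGAAA, the core of NFAT sites, were matched in Myh1, Myh2, Myh3 and Myh7 and in 55.6% of all windows, and TCAGGTT, the core of the MEF3 site, in none of the 6 genes and in 3.50% of all windows. None of these matches overlapped the shared run.

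The coding sequences were alike enough that reads could match more than a single isoform. Myh1 and Myh2 were identical at 91.1% of aligned coding bases, Myh4 and Myh1 at 90.2%, and the lowest identity among the 6 was 76.7%, between Myh7 and Myh3. Of all stretches of 50 bases in the coding sequence, 28.1% of those of Myh2, 27.9% of Myh1, 23.8% of Myh7, 22.7% of Myh8, 19.5% of Myh4 and 4.99% of Myh3 occurred unchanged in another sarcomeric isoform. Those of Myh7 were shared chiefly with Myh6, and Myh6 and Myh7 were identical at 91.6% of aligned bases. How the authors assigned such reads is not given in the sources used here, so levels of low members beside abundant near-copies are uncertain. Of the genes that overlap a member on the opposite strand, 9430073C21Rik, antisense to Myh2, was listed at 0.857 to 4.85 TPM.

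**Figure D1:**
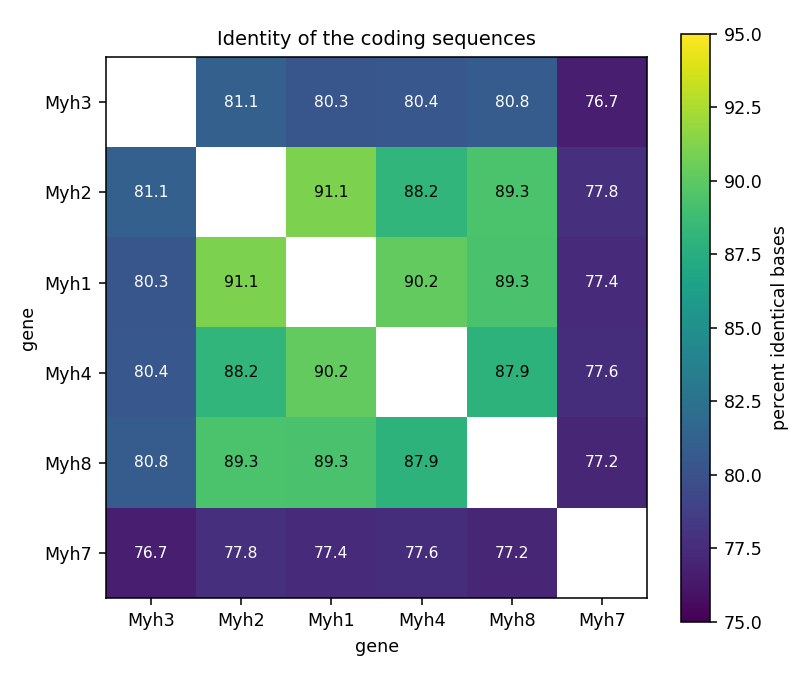
Percent of identical bases between the aligned coding sequences of each pair of the 6 myosin heavy chains, as shades and printed values. Myh1, Myh2, Myh4 and Myh8 were 87.9% to 91.1% identical to each other, Myh3 was 80.3% to 81.1% identical to these 4, and Myh7 was the most distant.

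The libraries carried the markers of skeletal muscle. The summed TPM of 8 fibre genes ranged from 43870 to 99998 over the 15 libraries, and 5 melanocyte and melanoma genes summed to at most 0.392 TPM, with Tyr, Dct and Tyrp1 under 0.1 TPM throughout. Transcripts of the mitochondrial genome took 28.5% to 46.9% of the TPM in tumour-bearing muscles and 40.8% to 52.8% in tumour-free muscles, which moves the TPM of every nuclear gene. Control library 2, with 23878 TPM of haemoglobin, and melanoma library 2 stood apart from their groups (mean correlation with the group of 0.937 and 0.938, against at least 0.965 in all other libraries). For the skeletal myosin heavy chains, tests with and without this pair are given below where it mattered. For the other genes named below, no test without this pair is given. Sums of immune cell markers are given as a description, with no test. The sum of 3 B cell genes was 1.86 to 20.4 TPM in tumour-bearing and 29.1 to 168 TPM in tumour-free muscles, mostly from Ighm, an immunoglobulin heavy chain. The sum of 3 neutrophil genes had medians of 126 TPM with melanoma plus lisinopril and 192 TPM with melanoma, against 37.1 TPM with lisinopril and 28.1 TPM in controls, with overlapping ranges. The part of these cells in the tumour effects was not tested.

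Adult fast isoforms made up nearly all myosin heavy chain transcript in every library. The 6 genes summed to 20208 ± 2653 TPM in melanoma plus lisinopril muscles, 18456 ± 3216 in melanoma muscles, 14632 ± 3504 in lisinopril muscles and 12838 ± 2057 in control muscles (SD, n = 4, 4, 3 and 4). The tumour-bearing libraries ranged from 14442 to 23985 TPM and the tumour-free libraries from 10000.4 to 17753 TPM, so the ranges overlapped. As a percent of all TPM outside the mitochondrial genome, the sum was 2.72% to 3.55% in tumour-bearing muscles and 2.02% to 3.09% in tumour-free muscles. Over all 15 libraries the share of the sum was 40.8% to 75.7% for Myh4, 22.3% to 54.8% for Myh1, 0.404% to 5.68% for Myh2, 0.00315% to 0.716% for Myh8, 0.00503% to 0.272% for Myh3 and 0.000237% to 0.247% for Myh7. Myh4 was the leading isoform in 13 libraries, and Myh1 in control library 3 and melanoma library 2. In bulk muscle, fewer fibres of a type and less RNA per fibre cannot be told apart.

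None of the 6 isoforms passed the test in any of the 7 contrasts fitted. The test was limma on log2(TPM + 1) over all 11923 genes, with Benjamini-Hochberg adjustment and a threshold of 0.05. For the average tumour effect, the mean of the differences with and without lisinopril, limma called 18.0% of all genes and 0 of 6 members, and 2 of 6 members against 38.0% of all genes had an unadjusted p under 0.05. Of the 2141 genes called there, 1730 were higher and 411 lower in tumour-bearing muscle, a split that depended on scaling: 1127 were higher and 1170 lower after median-ratio rescaling. Melanoma alone against control called 0.646% of all genes and 0 members, with 3 of 6 members against 18.5% of genes at an unadjusted p under 0.05. Melanoma plus lisinopril against lisinopril called 1.48% of genes and 0 members, with 1 of 6 members against 23.3% of genes at an unadjusted p under 0.05. The median log2 fold change of the 6 members in the average tumour effect was 0.33, beside 0.17 over all genes.

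Myh4, the isoform of the fastest and most glycolytic fibres, was the most abundant. It measured 11933, 11259.7, 15191 and 17891 TPM in melanoma plus lisinopril muscles and 16287, 7683, 12329.7 and 8596 TPM in melanoma muscles. It measured 10636, 6017 and 13249.9 TPM in lisinopril muscles and 6480.4, 7195, 4077 and 10282 TPM in control muscles. The order of the group means was melanoma plus lisinopril, melanoma, lisinopril and control, and each neighbouring pair overlapped. The average tumour effect was a log2 fold change of 0.62 ± 0.23 (SE), a 1.54-fold higher fitted level, with a 95% interval of 0.12 to 1.11. That missed the threshold (limma, adjusted p = 0.0691), although 7 of 8 tumour-bearing libraries lay above the mean of the tumour-free libraries. With mitochondrial transcripts left out of the TPM the effect was 0.48 (limma, adjusted p = 0.111), and after median-ratio rescaling, which brought the median of all genes from 0.17 to 0.0051, it was 0.42 (limma, adjusted p = 0.199). With quantile normalization it was 0.73 (limma, adjusted p = 0.0219), and without control 2 and melanoma 2 it was 0.72 (limma, adjusted p = 0.0408), both past the threshold.

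Myh1, the isoform of the fast IIX fibres, followed. It measured 6301, 6603, 4472 and 5452 TPM in melanoma plus lisinopril muscles and 5494, 9678, 7270.4 and 5396 TPM in melanoma muscles. It measured 4256, 4239.9 and 4398 TPM in lisinopril muscles and 6397, 5290.0, 5308 and 4099.9 TPM in control muscles. The 3 lisinopril libraries were nearly identical and lay below all 4 libraries of melanoma plus lisinopril in TPM, a separation seen in 33.4% of all genes in that contrast. The gap was narrow, from 4398 TPM in lisinopril library 3 to 4472 TPM in melanoma plus lisinopril library 3. Whether it held with mitochondrial transcripts left out was not tested. The average tumour effect on Myh1 was 0.38 ± 0.15 (SE) on the log2 scale, a 1.31-fold higher fitted level, and missed the threshold (limma, adjusted p = 0.0724). It was 0.25 without mitochondrial transcripts (limma, adjusted p = 0.282) and 0.18 after median-ratio rescaling (limma, adjusted p = 0.416), while it passed with sample quality weights, at 0.44 (limma, adjusted p = 0.0113), and without melanoma library 4, at 0.44 (limma, adjusted p = 0.0472). The Myh4 to Myh1 ratio averaged 2.57 ± 0.893 with melanoma plus lisinopril, 1.76 ± 0.897 with melanoma, 2.31 ± 0.813 with lisinopril and 1.41 ± 0.770 in controls (SD).

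Myh2, the isoform of the oxidative fast IIA fibres, averaged 337 ± 161 TPM over the 15 libraries (SD). It measured 396, 177, 276 and 507 TPM in melanoma plus lisinopril muscles and 167, 235, 79.6 and 393 TPM in melanoma muscles. It measured 366, 486 and 103 TPM in lisinopril muscles and 580.3, 352, 568 and 372 TPM in control muscles. Melanoma libraries lay mostly below controls, with melanoma library 4 inside the control range. The log2 fold change of melanoma against control was -1.28 ± 0.51 (SE), with a 95% interval of -2.36 to -0.20, and missed the threshold (limma, adjusted p = 0.208). In the presence of lisinopril the tumour difference was 0.25 ± 0.55 (SE), the opposite sign (limma, adjusted p = 0.786), and the interaction, the difference between these tumour effects, was 1.53 ± 0.75 (SE). The interaction had an unadjusted p of 0.0580 and did not pass (limma, adjusted p = 1.0), in a contrast where limma called 0% of all genes and 1.27% had an unadjusted p under 0.05. Without lisinopril library 3 the tumour difference under lisinopril was -0.42. With all libraries kept it was -0.024 after median-ratio rescaling and -0.040 with quantile normalization. Its sign thus depended on that library and on the scaling.

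Myh8, the perinatal isoform, was above 10 TPM in 13 libraries and under 2 TPM in the others. It measured 108, 1.84, 115 and 68.7 TPM in melanoma plus lisinopril muscles and 68.8, 54.7, 16.2 and 42.1 TPM in melanoma muscles. It measured 41.7, 77.6 and 0.559 TPM in lisinopril muscles and 87.9, 54.8, 35.9 and 97.0 TPM in control muscles. The low libraries, lisinopril 3 and melanoma plus lisinopril 2, came from different groups, and all 4 groups overlapped. The average tumour effect was 0.27 ± 0.88 (SE) with a 95% interval of -1.60 to 2.14 (limma, adjusted p = 0.843). It was -0.60 without lisinopril library 3, so no direction could be read.

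Myh3, the embryonic isoform, was low everywhere and highest on average in controls. It measured 2.47, 0.958, 4.34 and 7.55 TPM in melanoma plus lisinopril muscles and 3.42, 1.60, 11.7 and 1.54 TPM in melanoma muscles. It measured 0.769, 20.2 and 1.23 TPM in lisinopril muscles and 37.0, 16.4, 10.4 and 7.05 TPM in control muscles. Control library 1 was the highest of all, and lisinopril library 2 lay above control libraries 2, 3 and 4. At or below 7.55 TPM were 7 of 8 tumour-bearing libraries, but also lisinopril libraries 1 and 3 and control library 4. The log2 fold change of melanoma against control was -1.84 ± 0.76 (SE), with a 95% interval of -3.45 to -0.23 (limma, adjusted p = 0.221). That of lisinopril against control was also -1.84, with a standard error of 0.82 (limma, adjusted p = 0.714). These contrasts share the control libraries. Melanoma plus lisinopril against lisinopril gave -0.061 ± 0.82 (SE; limma, adjusted p = 0.969). The average tumour effect, the mean of these unlike arms, was -0.95 ± 0.56 (SE) and did not pass (limma, adjusted p = 0.220).

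Myh7, the slow isoform and also the main myosin of the human adult heart ventricle, was under 1.5 TPM in 12 libraries. It measured 0.891, 6.25, 0.244 and 59.3 TPM in melanoma plus lisinopril muscles and 0.239, 0.697, 0.503 and 12.4 TPM in melanoma muscles. It measured 0.161, 0.403 and 0.0421 TPM in lisinopril muscles and 1.47, 0.416, 0.589 and 0.473 TPM in control muscles. Only 3 libraries, all tumour-bearing, were above 2 TPM, and the other 5 tumour-bearing libraries lay within the range of the tumour-free ones. All lisinopril libraries lay below all control libraries in TPM, a separation seen in 4.34% of genes in that contrast, at levels under 1.5 TPM. The gap was narrow, from 0.403 TPM in lisinopril library 2 to 0.416 TPM in control library 2. Whether it held with mitochondrial transcripts left out was not tested. The average tumour effect was 1.42 ± 0.71 (SE) with a 95% interval of -0.097 to 2.94 and did not pass (limma, adjusted p = 0.156). Melanoma plus lisinopril against lisinopril gave 2.25 ± 1.04 (SE; limma, adjusted p = 0.210).

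Of the 3 libraries with high Myh7, melanoma plus lisinopril library 4 was also high in many other slow-fibre transcripts, and the other two were high in few of them. Of 14 slow sarcomere genes kept, 8 were at their highest of all libraries in melanoma plus lisinopril library 4. In melanoma plus lisinopril library 4, Tnnc1, the troponin C of slow and cardiac muscle, was at 113 TPM, Myl2, the slow regulatory light chain, at 99.5 TPM and Tnnt1, the slow troponin T, at 78.4 TPM. Myl2 was at 16.3 TPM in melanoma library 4 and 10.1 TPM in melanoma plus lisinopril library 2, and at most 5.16 TPM in the other 12 libraries. In melanoma library 4 and in melanoma plus lisinopril library 2, 3 of 14 slow genes lay above every tumour-free library and 4 lay below every control, counted in each library. Tnni1, the slow troponin I, was at 26.7 TPM in melanoma plus lisinopril library 4, 4.36 TPM in melanoma plus lisinopril library 2 and 6.57 TPM in melanoma library 4, against 8.86 to 28.8 TPM in controls. Tnnt1 was at 10.8 TPM in melanoma plus lisinopril library 2 and 14.4 TPM in melanoma library 4, against 11.1 to 32.9 TPM in controls. The cardiac isoform Myh6 was at 14.5 TPM in melanoma plus lisinopril library 4 and at most 2.94 TPM elsewhere. The summed TPM of 5 cardiomyocyte genes, Myh6 among them, was 3.22 to 20.2 in melanoma plus lisinopril, 4.15 to 9.23 in melanoma, 0.591 to 7.46 in lisinopril and 4.29 to 16.4 in control muscles. Of the stretches of 50 coding bases of Myh6, 23.8% occurred in Myh7. The Myh6 values and this sum are therefore uncertain as a measure of cardiac cells where Myh7 is high. What part the amount of slow tissue in a sample has in the Myh7 values was not tested.

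**Figure D2:**
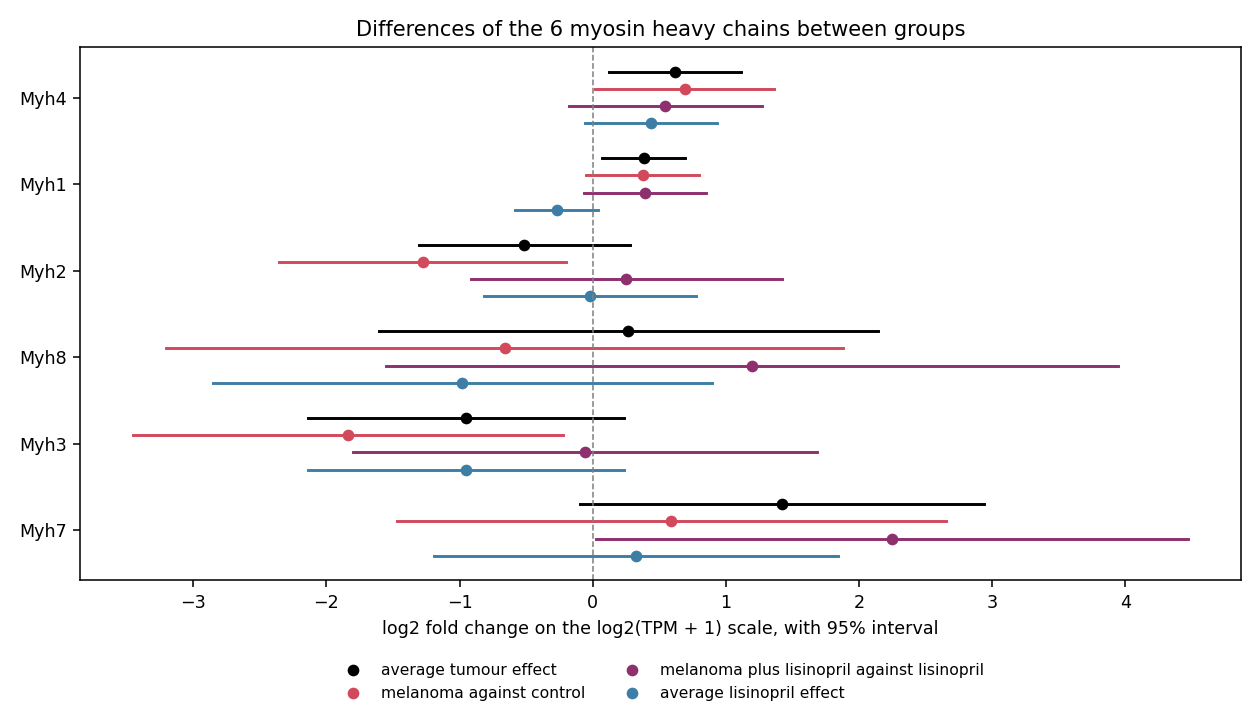
Log2 fold change of each myosin heavy chain in 4 contrasts, fitted on log2(TPM + 1), with 95% intervals as bars and a dashed line at 0. The average tumour effect of Myh4 was 0.62 and that of Myh1 0.38, with narrow intervals, whereas the interval of Myh8 ran from -1.60 to 2.14.

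Lisinopril changed none of the 6 transcripts past the threshold, with or without a tumour. In the average lisinopril effect limma called 0% of all genes, and 0 of 6 members and 5.29% of genes had an unadjusted p under 0.05. Myh4 had the positive value of 0.44 ± 0.23 (SE) and Myh1 the negative value of -0.27 ± 0.15 (SE) in that contrast (limma, adjusted p = 0.676 for each), with 95% intervals of -0.056 to 0.93 and -0.58 to 0.042. The median of all genes was -0.13 there. Melanoma plus lisinopril against melanoma called 0% of genes, and 0 members and 1.59% of genes had an unadjusted p under 0.05. Lisinopril against control called 0% of genes, with 1 of 6 members, Myh3, and 3.87% of genes at an unadjusted p under 0.05.

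Shares of the family sum do not depend on how the rest of a library is scaled, and they were compared with exact two-sided permutation tests stratified by the other factor. Of 12 share tests, 6 members for each factor, 3 had an unadjusted exact permutation p under 0.05 and 0 passed after Benjamini-Hochberg adjustment over the 12. The 3 were the shares of Myh2 and Myh3 in tumour-bearing muscles and of Myh1 in lisinopril-treated muscles, all with lower means there, and each missed the unadjusted threshold too under some of the alternatives below. Myh2 made up 2.11%, 0.978%, 1.38% and 2.11% of the sum with melanoma plus lisinopril and 0.758%, 1.33%, 0.404% and 2.72% with melanoma, against 2.39%, 4.48% and 0.579% with lisinopril and 4.27%, 2.73%, 5.68% and 2.51% in controls. The ranges overlapped through melanoma library 4 and lisinopril library 3. The mean was 1.47% ± 0.785 in tumour-bearing and 3.23% ± 1.69 in tumour-free muscles (SD, n = 8 and 7), a stratified difference of -1.67 percentage points (exact permutation p = 0.0318, unadjusted). Leaving out a single library moved the difference between -2.14 and -1.17 points and the exact permutation p up to 0.103, which was the p without lisinopril library 2. The threshold was also missed without control 3, lisinopril 1, melanoma 1, melanoma 3, melanoma plus lisinopril 2 or melanoma plus lisinopril 3, each left out alone.

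Myh3 made up 0.0208% ± 0.0176 of the sum in tumour-bearing muscles and 0.107% ± 0.0983 in tumour-free muscles (SD, n = 8 and 7). The stratified difference was -0.0811 percentage points (exact permutation p = 0.0208, unadjusted). It was -0.0510 points without lisinopril library 2 (exact permutation p = 0.0848), the tumour-free library with 20.2 TPM. For Myh4, Myh1, Myh8 and Myh7 the tumour-bearing and tumour-free shares did not differ past the threshold (exact permutation p = 0.390, 0.571, 0.342 and 0.321). Myh4 made up 64.5% ± 10.6 of the sum in tumour-bearing and 59.0% ± 12.5 in tumour-free muscles, and Myh1 made up 33.7% ± 10.7 in tumour-bearing and 37.2% ± 10.8 in tumour-free muscles (SD).

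Between lisinopril-treated and untreated muscles, the balance of the 2 abundant isoforms lay at the edge of the unadjusted threshold. Myh1 made up 29.6% ± 6.86 of the sum in the 7 treated muscles and 40.3% ± 10.9 in the 8 untreated muscles (SD), a stratified difference of -10.7 points (exact permutation p = 0.0494, unadjusted). Myh4 made up 68.0% ± 7.70 in treated and 56.6% ± 12.0 in untreated muscles, a difference of 11.2 points (exact permutation p = 0.0559, unadjusted). Without control 4, lisinopril 2, melanoma 1 or melanoma plus lisinopril 2, the Myh4 difference was 12.3 to 14.0 points and passed. The Myh4 and Myh1 values mirror each other because these 2 isoforms make up almost the whole sum. The Myh1 difference missed the threshold without control 1, 2 or 3, lisinopril 1 or 3, melanoma 2, 3 or 4, or melanoma plus lisinopril 3 or 4, which is 10 of 15 tests that left out a single library, with values of -10.9 to -7.94 points, and in the fit without control 2 and melanoma 2, at -8.14 points (exact permutation p = 0.137). The treated range of Myh1 was 22.3% to 39.1% and the untreated range 24.9% to 54.8%.

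**Figure D3:**
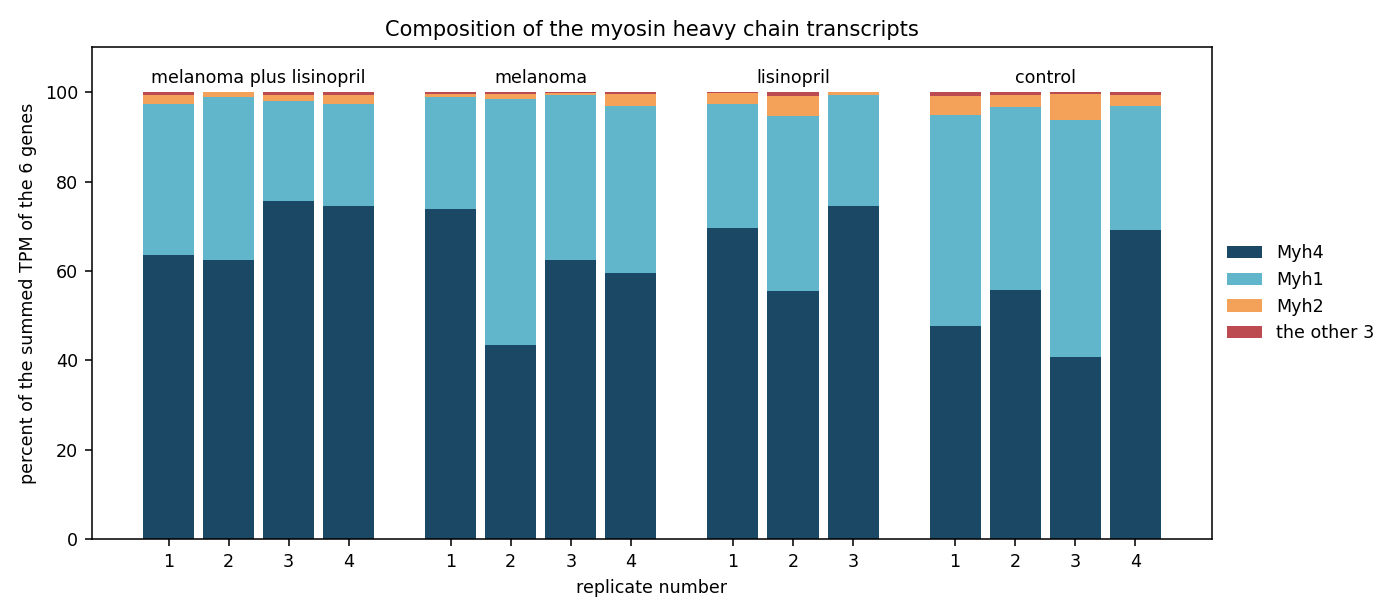
Composition of the myosin heavy chain transcripts as a percent of the summed TPM of the 6 genes, a bar for each library, ordered by group. Myh4 and Myh1 fill almost every bar, Myh2 reaches 5.68% in control library 3, and Myh8, Myh3 and Myh7 are drawn together as the other 3.

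Each isoform moved across libraries with a different set of transcripts. Pearson correlations of log2(TPM + 1) over the 15 libraries are given as a description, with no test, because the libraries share the composition of their TPM. The genes most like Myh4 were Actn3, the actinin of fast fibres (r = 0.971), Ryr1, the calcium release channel (r = 0.924), Mybpc2, the fast myosin-binding protein C (r = 0.913), and Atp2a1, the fast-fibre calcium pump (r = 0.900), followed by Spg7 (r = 0.891). For Actn3 the correlation of deviations from the group means was 0.961, and r was 0.952 without the 2 libraries farthest from the Myh4 median. Actn3 itself was at 3984 to 6504 TPM with melanoma plus lisinopril, 2541 to 6717 with melanoma, 2791 to 4838 with lisinopril and 1665 to 4045 TPM in controls. The genes most like Myh1 were none of the sarcomere genes listed here: Enc1 (r = 0.932), Acaca, an enzyme of fatty acid synthesis (r = 0.899), Adamts9 (r = 0.898), Myo5a (r = 0.892) and Lrrc49 (r = 0.886). Without melanoma libraries 2 and 3, r was 0.846 for Enc1 and 0.728 to 0.813 for the others. Enc1 was 0.58 higher on the log2 scale in the average tumour effect and passed the test there (limma, adjusted p = 0.0336). Adamts9 at 0.99 (limma, adjusted p = 0.00925) and Myo5a at 0.99 (limma, adjusted p = 0.0354) passed too, beside 18.0% of all genes. Acaca at 0.65 (limma, adjusted p = 0.0547) and Lrrc49 at 0.28 (limma, adjusted p = 0.109) did not. These genes were picked by likeness to Myh1 over the same libraries, so their tumour effects are not independent of that of Myh1.

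Myh3 moved with developmental sarcomere genes. Its closest transcripts were Myl6b (r = 0.980) and Myl4, the embryonic light chain (r = 0.967), then A930003A15Rik (r = 0.958), Tnnt2, the cardiac and embryonic troponin T (r = 0.923), and Fgfrl1 (r = 0.923). Myl4 was highest in control library 1, at 39.3 TPM, lisinopril library 2, at 30.5 TPM, and control library 2, at 29.3 TPM, the 3 libraries with the highest Myh3. Without control library 1 and lisinopril library 2, r was 0.966 for Myl6b and 0.949 for Myl4. The genes most like Myh7 were Myl2 (r = 0.968) and Myh6 (r = 0.939), then Trib1 (r = 0.887), Acbd7 (r = 0.858) and Ttc21b (r = 0.858). Without melanoma plus lisinopril library 4 and melanoma library 4, r was 0.869 for Myl2, 0.794 for Myh6 and 0.475 to 0.749 for the others.

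Myh8 was most like its neighbour Myh13 (r = 0.892, and 0.903 without lisinopril library 3 and melanoma plus lisinopril library 2). Myh13 was at 1.55 TPM in melanoma plus lisinopril library 2, 0.505 TPM in melanoma library 3 and 0.117 TPM in lisinopril library 3, the 3 libraries with the lowest Myh8, and at 5.97 TPM or more in the other 12. Of stretches of 50 coding bases, 5.07% of those of Myh8 occurred in Myh13. The next genes, Eid2 (r = 0.738), Gm13305 (r = 0.729), Lancl1 (r = 0.715) and Tnip1 (r = 0.713), fell to r of 0.375 to 0.531 without those 2 farthest libraries. Myh2 had no close companion: its highest were Ldhb, a lactate dehydrogenase subunit of oxidative fibres (r = 0.729), Isca2 (r = 0.724), 2310008N11Rik (r = 0.701), Bdh1 (r = 0.701) and Gm6741 (r = 0.695).

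**Figure D4:**
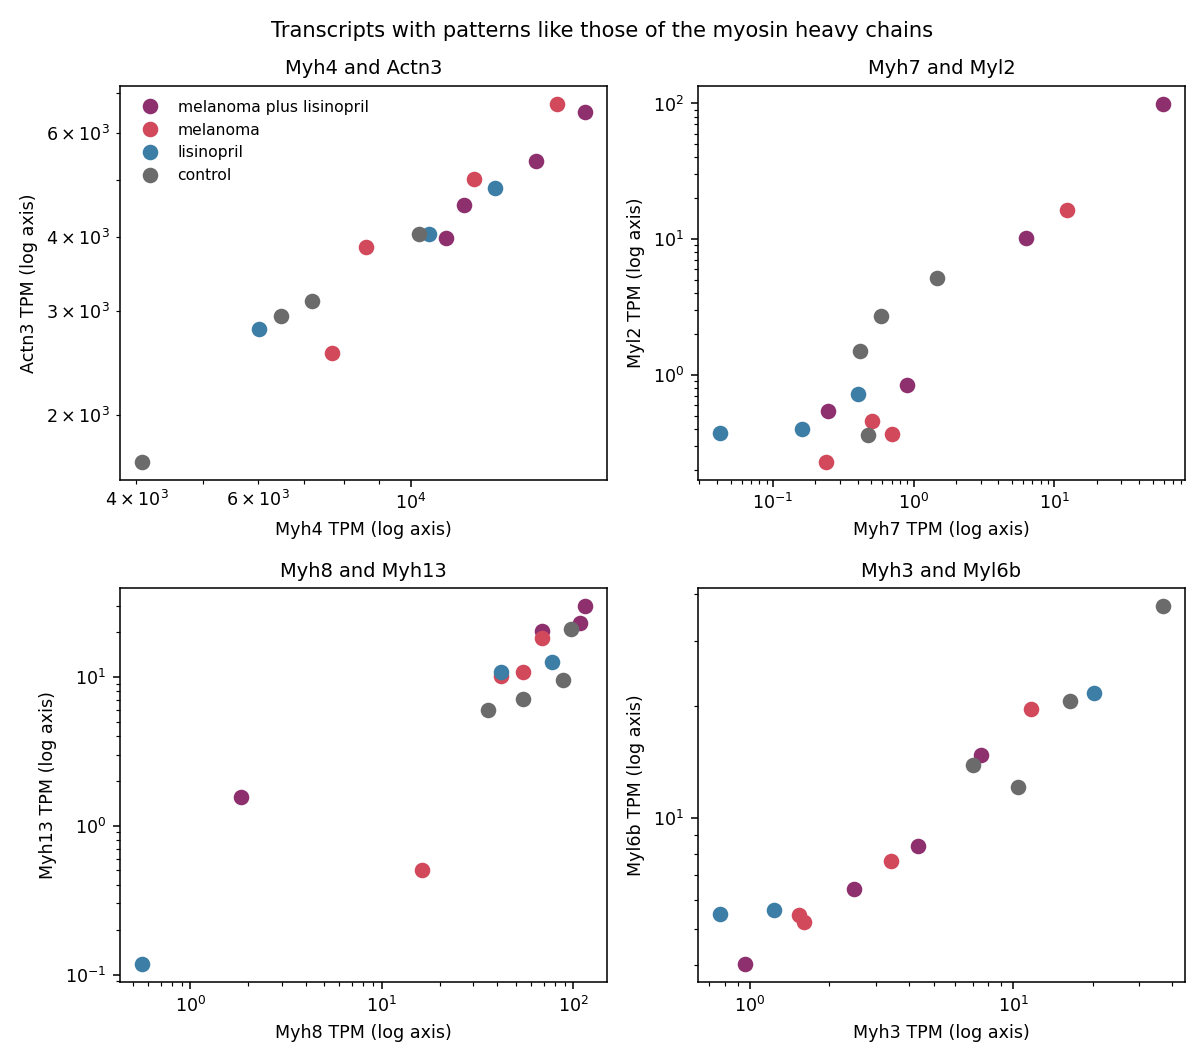
TPM of 4 myosin heavy chains against a transcript with the most similar pattern, on log axes, a point for each of the 15 libraries in the colour of its group. The Pearson r of log2(TPM + 1) was 0.971 for Myh4 and Actn3, 0.968 for Myh7 and Myl2, 0.892 for Myh8 and Myh13 and 0.980 for Myh3 and Myl6b.

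Fast-fibre genes that work with the myosin heavy chains were called higher in tumour-bearing muscle about as often as genes in general. In the average tumour effect, 2 of 13 fast sarcomere genes were higher and 0 lower, where 14.5% of all genes were called higher and 3.45% lower, and 8 of 13 had an unadjusted p under 0.05 in limma, against 38.0% of all genes. The 2 were Mylk2, the kinase of the fast light chain, at 0.87 ± 0.19 (SE; limma, adjusted p = 0.0113) and Atp2a1 at 0.57 ± 0.16 (SE; limma, adjusted p = 0.0307). Myl1, the fast essential light chain, had -0.67 (limma, adjusted p = 0.0610) and Myoz1 0.42 (limma, adjusted p = 0.0614). None of 14 slow sarcomere genes passed, and 3 of 14 had an unadjusted p under 0.05 in limma, against the same 38.0%. These 3 had values of 1.15 (Tpm3), -0.47 (Pln) and -0.86 (Casq2), and Sln, next in order of p, had 1.30 (limma, unadjusted p = 0.0726). The list medians were 0.16 for fast and 0.32 for slow genes, beside 0.17 for all genes. After median-ratio rescaling, where 9.45% of all genes were called higher and 9.81% lower, the fast list had 1 gene higher, Mylk2, and 1 lower, Myl1 (-0.87; limma, adjusted p = 0.0426), with Atp2a1 at 0.37 (limma, adjusted p = 0.121), and its median was -0.041. None of the 7 other myosin heavy chains kept passed, with 3 at an unadjusted p under 0.05 in limma and a median of 0.44. The slow median of 0.32 averaged unlike arms. It was -0.19 for melanoma against control and 1.27 for melanoma plus lisinopril against lisinopril, beside 0.10 and 0.23 for all genes. The fast medians were 0.23 and 0.073 there. For lisinopril against control, all 14 slow genes had negative values (median -1.09) and all 13 fast genes positive values (median 0.33). The median of all genes was -0.18 there, and 0 genes of either list passed. The slow falls were uneven across the lisinopril libraries, which are also the reference for the slow median of 1.27. In lisinopril libraries 1, 2 and 3, Tnni1 was at 0.890, 18.6 and 0.469 TPM, against 8.86 to 28.8 TPM in controls. Sln was at 2.89, 34.1 and 1.01 TPM, against 12.3 to 114 TPM. Library 2 also lay within the control range in Tnnt1 and Tnnc1, but below every control in Myl3 and Mybpc1.

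In the average tumour effect, 0 of 12 developmental and denervation genes kept were higher and 1 was lower, where 14.5% of all genes were called higher and 3.45% lower. The gene was Actc1, the cardiac and embryonic actin. It was at 25.8 ± 24.0 TPM with melanoma plus lisinopril and 50.6 ± 64.5 TPM with melanoma, against 228 ± 186 TPM with lisinopril and 329.8 ± 275 TPM in controls (SD), a log2 fold change of -3.14 ± 0.55 (SE; limma, adjusted p = 0.00385). Chrnb1 and Chrnd, subunits of the acetylcholine receptor of the motor endplate, and Myl6b had 0.41, -0.56 and -0.66, and none of these passed (limma, adjusted p = 0.168, 0.187 and 0.193). Myl6b stands in both the slow and the developmental list.

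Of 31 regulators of fibre type and myosin genes kept, 8 were higher and 0 lower, where 14.5% of all genes were called higher and 3.45% lower. After median-ratio rescaling 3 were higher and 1 lower, beside 9.45% and 9.81% of all genes, so the rescaled share of the list called higher is near that of all genes. Foxo1, a transcription factor of muscle atrophy, was 1.85 ± 0.35 (SE) higher on the log2 scale (limma, adjusted p = 0.00538). In TPM, every tumour-bearing library lay above every tumour-free library, a separation in either direction seen in 2.33% of all genes. The gap was narrow, with Foxo1 at 8.68 TPM in melanoma library 3 and 8.59 TPM in control library 2. Whether the separation held with mitochondrial transcripts left out was not tested. Eya1, a transcriptional coactivator that promotes fast fibre genes, was 0.62 higher (limma, adjusted p = 0.0100), Sox6, a repressor of slow fibre genes, 0.49 higher (limma, adjusted p = 0.0195) and Hdac5, a histone deacetylase, 0.56 higher (limma, adjusted p = 0.0274). Rescaled, Foxo1 was at 1.68 (limma, adjusted p = 0.00457), Eya1 at 0.44 (limma, adjusted p = 0.0173), Hdac5 at 0.37 (limma, adjusted p = 0.0325) and Sox6 at 0.30, which missed the threshold (limma, adjusted p = 0.111). Of 17 genes of myosin folding, assembly and turnover, 4 were higher and 1 lower beside the same 14.5% and 3.45%, and 1 was higher and 1 lower after median-ratio rescaling beside 9.45% and 9.81%. Trim63, the ubiquitin ligase MuRF1 that targets myosin heavy chain, was 1.47 ± 0.43 (SE) higher (limma, adjusted p = 0.0343), Trim54 0.63 higher (limma, adjusted p = 0.0340) and Trim55 fell by 0.49 (limma, adjusted p = 0.0226). Rescaled, Trim63 was at 1.26 (limma, adjusted p = 0.0427) and Trim55 at -0.68 (limma, adjusted p = 0.0103), while Trim54 missed the threshold (limma, adjusted p = 0.0723). The medians of the regulator and turnover lists were 0.32 and 0.30, beside 0.17 for all genes.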

How the data were processed

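The values are TPM, computed by the authors against mm10 per the submitters' processing notes and deposited as a single table of 15 libraries. The sources used here do not name an aligner, a counting program or an annotation. Per the labels' protocols, Trizol RNA was made into TruSeq stranded mRNA libraries and sequenced on a NovaSeq instrument. Each column of deposited TPM summed to 1000000, so depth is unknown and no counting interval or detection limit is given. Groups followed the treatment labels.

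The members, gene lists and tests were chosen with earlier results of these data known. Genes with at least 1 TPM in at least 3 libraries (11923) were fitted as log2(TPM + 1) in limma (version 3.58.1, R 4.3.3). The 4 groups had a mean each and shared 1 variance per gene on 11 residual degrees of freedom, moderated with an intensity trend. Tests were two-sided, with Benjamini-Hochberg adjustment over all kept genes within each of 7 contrasts. Fold changes are on the log2(TPM + 1) scale, which understates changes of low genes. Shares were tested over 2450 stratified relabellings, which allow a smallest p of 0.000408. The fitting step was tested on simulated data. The 6 members were named whatever their result, with up to 4 genes of each list by smallest p in the average tumour effect and the 5 genes most correlated with each member. The values of 1 gene of the turnover list are not reported here. Coding sequences came from GENCODE M21 and upstream windows from RefSeq. Alternatives changed the pseudocount, filter, scaling, variance model, replicate block and libraries used.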

Additional observations from a re-analysis of the deposited data

Results flagged for a closer look

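Values were marked in groups of 4 libraries. The mark was set when the gap to the nearest other library exceeded Dixon's critical share of the group's range at the 95% level. For normally distributed values, chance gives such a mark in about 1 in 20 groups. Of 36 groups, 7 held a marked value, and 5 of these were Myh7 values. Groups were formed for TPM and for shares, so they were not independent, and 7 of 36 cannot be set against 1 in 20. Myh7 was at 59.3 TPM, 0.247% of the family sum, in melanoma plus lisinopril library 4, at 12.4 TPM, 0.0855% of the sum, in melanoma library 4, and at 1.47 TPM in control library 1. Melanoma library 3 had the lowest Myh8 share of its group, at 0.0821%, and the highest Myh3 share, at 0.0593%.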

How the results depend on the processing

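Tumour shares missed the unadjusted threshold under several settings. For Myh2 the log2 share gave -1.02 (exact permutation p = 0.0824), leaving out control 2 and melanoma 2 gave -1.85 points (exact permutation p = 0.0571), and single libraries left out gave -2.14 to -1.17. For Myh3 these were -1.53 (exact permutation p = 0.108), -0.0805 (exact permutation p = 0.0686) and -0.0964 to -0.0510. Lisinopril shares of Myh1 gave -0.43 on the log2 scale (exact permutation p = 0.0547), -8.14 points without control 2 and melanoma 2 (exact permutation p = 0.137) and -13.1 to -7.94 without single libraries, and those of Myh4 gave 8.47 to 14.0, past the threshold in 4 of 15 such fits. Average tumour effects passed in limma for Myh1 with sample quality weights (0.44), with 0.30 to 0.44 over single libraries left out, and for Myh4 with quantile normalization (0.73) and without control 2 and melanoma 2 (0.72). Replicate numbers did not clearly pair the libraries. The correlation of deviations was -0.15 to 0.36 within a number (median 0.083) and -0.42 to 0.36 between numbers (median -0.035). Only 4 libraries correlated best with their own number. Because the ranges overlap, pairing could be neither shown nor excluded. With the replicate block the Myh2 tumour share differed by -1.85 points (exact permutation p = 0.0938), that of Myh3 by -0.0878 (exact permutation p = 0.0625), and the tumour effects were 0.58 for Myh4 (limma, adjusted p = 0.0860) and 0.42 for Myh1 (limma, adjusted p = 0.0518). Sign changes were all in values that missed the threshold, and the cause was not tested. The Myh7 lisinopril share turned to -0.47 on the log2 scale and ranged from -0.00693 to 0.0341 over single libraries left out, and that of Myh8 to 0.00136 with the block and from -0.136 to 0.0428. The Myh1 interaction turned to -0.025 with quantile normalization, -0.14 with median-ratio rescaling, -0.0024 without mitochondrial transcripts and -0.11 with quality weights (-0.091 to 0.19 over single libraries left out), and that of Myh4 to 0.036 with quality weights (-0.47 to 0.098). The average lisinopril effect on Myh2 turned to 0.14, 0.011, 0.21 and 0.059 with median-ratio, quantile, weights and block (-0.24 to 0.32), and on Myh7 to -0.0041 with a pseudocount of 0.1 and -0.039 with weights (-0.24 to 0.72). Melanoma plus lisinopril against lisinopril turned for Myh2 to -0.024 and -0.040 with median-ratio and quantile scaling (-0.42 to 0.69), for Myh3 to 0.11 with a pseudocount of 0.1 and 0.020 with the block (-0.71 to 1.08), and for Myh8 only over single libraries left out (-0.54 to 2.46). Melanoma plus lisinopril against melanoma turned for Myh8 to 0.028 with median-ratio, 0.80 with weights and 0.094 without control 2 and melanoma 2 (-0.57 to 1.22), and for Myh3 only over single libraries left out (-0.40 to 0.45). Lisinopril against control turned for Myh7 to 0.12 with the block, melanoma against control for Myh7 ranged from -0.21 to 0.94, and the average tumour effect on Myh8 from -0.60 to 0.90. The number of genes called in the average tumour effect ranged from 743 to 4660, and 80.8% of those called were higher in tumour-bearing muscle, against 49.1% with median-ratio rescaling and 60.8% without mitochondrial transcripts. Groups of 3 or 4 libraries, unknown depth and reads shared between isoforms limit all values.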
